A study of Mus musculus with 8 samples.

Results

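Transcript levels of mouse CD8+ T cells cultured with a PPARγ agonist were compared with those of cells cultured with a PPARα agonist. The comparison used 4 of the 8 arrays of the series, 2 for the PPARγ agonist and 2 for the PPARα agonist, chosen by the treatment in the sample labels. It covered the 21371 of 22206 transcript clusters that name 1 gene. The cells came from female mice. Naive CD8+ T cells were stimulated in vitro and treated for 48 h, and all arrays are labelled day 2. The other 4 arrays held cells given a PPARβ agonist or DMSO, the vehicle, under the same stimulation. The sources used here name neither the agonists nor their doses, nor the strain and age of the mice or the stimulus. Every group has 1 array under each of 2 title prefixes. The arrays that share a prefix are called a culture set, although the labels do not say what a prefix marks. Separate mice or cultures within a group are not stated either, and a p-value therefore reflects the spread between arrays, which may be technical.

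PPARα and PPARγ are nuclear receptors that bind fatty acids and pair with the retinoid X receptors, RXRs, on DNA sites made of repeated AGGTCA-like hexamers. PPARα is best known for switching on fatty acid oxidation in liver and muscle, and PPARγ for driving fat storage genes in adipocytes. Both can use overlapping target genes, such as Cpt1a, the enzyme that commits fatty acids to mitochondrial oxidation, and Plin2, a coat protein of lipid droplets. Activated CD8+ T cells, which kill infected and tumour cells, rely mainly on glycolysis, while memory cells rely more on fatty acid oxidation.

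The promoters of 2 such target genes are shown because they carry the AGGTCA hexamer, the core of the PPAR and RXR site. They cover the 250 bases upstream of the RefSeq start on build GRCm38.p6, written 5′ to 3′ on the strand of the gene. Capitals mark the hexamer, which lies on the opposite strand in both and therefore reads TGACCT. The Cpt1a window lies at chr19:3323051-3323300 on the plus strand, with the first capital 94 bases upstream of the start. The Plin2 window lies at chr4:86670060-86670309 on the minus strand, with the first capital 218 bases upstream.
Cpt1a: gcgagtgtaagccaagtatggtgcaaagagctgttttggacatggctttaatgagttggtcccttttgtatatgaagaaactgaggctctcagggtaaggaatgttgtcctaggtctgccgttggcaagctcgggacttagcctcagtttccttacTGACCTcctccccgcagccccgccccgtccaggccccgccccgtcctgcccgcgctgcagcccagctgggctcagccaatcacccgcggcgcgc
Plin2: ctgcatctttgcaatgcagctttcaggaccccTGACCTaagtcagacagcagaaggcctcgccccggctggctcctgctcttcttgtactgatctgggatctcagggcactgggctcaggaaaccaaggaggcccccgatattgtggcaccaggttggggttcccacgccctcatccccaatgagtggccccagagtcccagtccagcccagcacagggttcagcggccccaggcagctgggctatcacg
The hexamer was searched on both strands. It occurred in such windows of 15.8% of 27025 genes, of 7 of the 20 PPAR target genes with a window, and of 3 of the 18 genes with a window among the 24 named below (Fv1, Rsad1 and Tceal5). A match describes the letters of the window and not a bound site.

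All values are log2 RMA values, and a difference is the PPARγ agonist value minus the PPARα agonist value. On this scale a difference of 1 is a doubling. Of 21160 genes, the 12696 with a mean of at least 4.892 over the 8 arrays were tested. Array medians lay between 5.64 and 5.72. Cd8a, which encodes the CD8 alpha chain, stood at 16.57 and 16.73 with the PPARγ agonist and 16.48 and 16.65 with the PPARα agonist (values of a group are given for culture set 1 and then set 2). Pparg, the gene of PPARγ itself, lay below the tested range on all 4 arrays, at 3.76 and 3.72 with the PPARγ agonist and 3.77 and 3.67 with the PPARα agonist. Fewer cells of a type and less RNA per cell cannot be told apart in such bulk samples.

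limma called 0 of 12696 genes (0%) at an adjusted p under 0.05, and also 0 (0%) with culture set as a replicate block. The smallest adjusted p was 0.9999 without the block and 0.854 with it. Without the block, 255 genes had an unadjusted p under 0.05, with 146 higher and 109 lower in cells given the PPARγ agonist. With each array centred on its median these were 113 higher and 136 lower. With the block, 723 genes (5.69%) had an unadjusted p under 0.05, 412 of them higher and 311 lower.

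The size of the differences sets bounds on what was missed. The mean difference of the 2 culture sets had a median of 0.00 over the tested genes and was smaller than 0.5 for 96.4% of them. Only 14 genes reached a size of 1. The 95% interval of limma with the block had a median half-width of 0.39 and lay wholly between -1 and 1 for 12096 genes, or 95.3%. Without the block the half-width was 0.53 and the share 85.3%. For most tested genes a doubling or halving between the agonists was therefore outside the interval, while differences of 0.3 were not resolved.

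Within a culture set, the array pairs of different agonists were closer than the array pairs of 1 agonist across sets. The PPARγ and PPARα arrays correlated at 0.9954 in set 1 and 0.9946 in set 2 across genes. The 2 PPARγ arrays correlated at 0.9886 and the 2 PPARα arrays at 0.9912. The median size of the difference between agonists was 0.18 in set 1 and 0.18 in set 2, against 0.27 between the sets for the PPARγ agonist and 0.24 for the PPARα agonist. The differences of set 1 and set 2, which share no array, had the same sign for 50.1% of the tested genes. Across the 12696 genes they had a Pearson r of 0.02 and a Spearman rho of 0.02, and genes of these 4 arrays are not independent replicates.

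**Figure D1:**
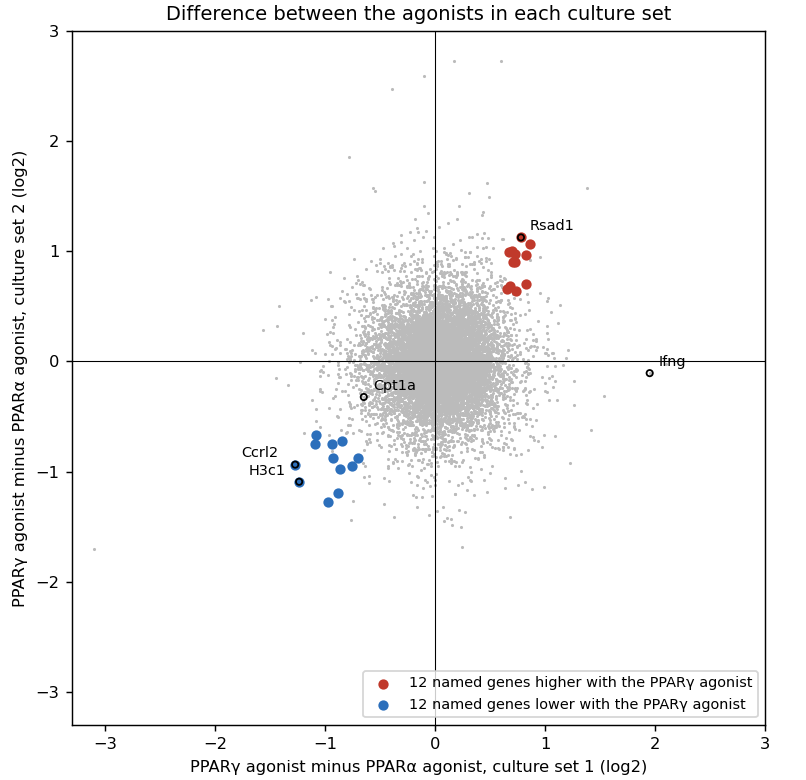
Difference between the PPARγ and PPARα agonists (log2) in culture set 1 (horizontal axis) and culture set 2 (vertical axis), 1 point per tested gene. The 12 named genes higher (red) and the 12 lower (blue) with the PPARγ agonist lie in the corners of a round cloud, and open circles mark the 5 labelled genes. Ifng differed by 1.95 in set 1 and -0.11 in set 2.

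A size of 0.3 or more with the same sign in both culture sets was reached by 359 genes higher with the PPARγ agonist (2.83%) and 295 lower (2.32%). With each array centred on its median the order turned round, to 292 higher and 343 lower. None of these genes passed the test. The values of the 2 groups did not overlap for 282 of the 359 and 233 of the 295, which the choice of these genes by the same arrays largely fixes. Over all tested genes the groups were apart with the PPARγ agonist higher in 12.7% and lower in 11.1%. Both PPARγ arrays lay above the other 6 arrays in 2.91% of all tested genes and below them in 2.35%, and both PPARα arrays below the other 6 in 2.22% and above them in 1.9%. The genes lower with the PPARγ agonist lay low on the scale, with a median level of 6.37. The median was 7.65 for the genes higher and 9.10 for all tested genes. Predicted genes and receptor families made up 14.5% of the higher and 15.9% of the lower genes, against 1142 of the 12696 tested genes. They were counted and not named.

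The 12 named genes higher with the PPARγ agonist, ranked by the smaller of their set differences, held no lipid gene of the lists used here. Itpr1 encodes a channel that releases calcium from the endoplasmic reticulum. It stood at 10.72 and 10.83 with the PPARγ agonist, 10.04 and 10.15 with the PPARα agonist and 10.44 and 10.24 with DMSO. Both PPARγ values lay above the other 6 arrays, and the difference was 0.68 (1.60-fold, SE 0.211 with the block, limma adjusted p = 0.854).

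Ggcx encodes the carboxylase that uses vitamin K to modify clotting and other proteins. It stood at 8.72 and 8.53 with the PPARγ agonist, 7.99 and 7.62 with the PPARα agonist and 8.49 and 8.25 with DMSO. The PPARγ arrays were the highest and the PPARα arrays the lowest of the 8, with a difference of 0.82 (1.76-fold, SE 0.149 with the block, limma adjusted p = 0.854).

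Nos2 encodes the inducible nitric oxide synthase. It stood at 5.22 and 5.21 with the PPARγ agonist, 4.49 and 4.23 with the PPARα agonist, and 5.60 and 4.71 with DMSO. The PPARα values were the lowest of the 8 arrays and lay under the cut on the mean, so the difference of 0.85 rests on values near the lower limit of the tested range. Ro60, an RNA-binding protein of Ro particles, stood at 6.09 and 5.98 with the PPARγ agonist and 5.23 and 4.92 with the PPARα agonist. DMSO arrays at 5.19 and 6.12 spanned nearly the same range for Ro60, so its groups did not overlap while its vehicle arrays covered both.

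The remaining 8 of these genes differed by 0.66 to 0.95. Rsad1, a radical SAM protein, had the smallest standard error with the block among the 12, at a difference of 0.95 (SE 0.142, limma adjusted p = 0.854). It stood at 7.47 and 6.88 with the PPARγ agonist and 6.69 and 5.75 with the PPARα agonist, so set 1 was higher than set 2 with both agonists. Stc2, a secreted stanniocalcin, overlapped between the groups, at a difference of 0.83. The others were Pcnx at 0.90, Iqcb1, a protein of the primary cilium, at 0.85, Uchl4, a ubiquitin hydrolase, at 0.80, and Btbd10 at 0.77. Myo10, a myosin of filopodia, followed at 0.69 and Fv1, a factor that restricts retroviruses, at 0.66. Both PPARα values of Myo10, 4.78 and 4.65, lay under the cut on the mean.

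Of the 12 named genes lower with the PPARγ agonist, Ccrl2 and Il18 act in immune signalling. Ccrl2 encodes a chemokine receptor-like protein that binds chemerin. It stood at 4.55 and 4.90 with the PPARγ agonist, 5.83 and 5.83 with the PPARα agonist and 5.95 and 5.75 with DMSO. Both PPARγ arrays lay below the other 6, and the difference was -1.10 (SE 0.314 with the block, limma adjusted p = 0.854).

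Il18, the gene of an interleukin that promotes interferon gamma production, stood at 5.89 and 6.75 with the PPARγ agonist, 6.97 and 7.41 with the PPARα agonist and 6.19 and 7.19 with DMSO. The agonist groups did not overlap, and both culture sets had the lower value with the PPARγ agonist, by 1.08 and 0.67 in size. H3c1, a gene of the replication-dependent histone H3 with near-identical copies elsewhere in the genome, stood at 5.35 and 4.63 with the PPARγ agonist and 6.59 and 5.72 with the PPARα agonist. The other histone H3 genes share nearly all of its coding sequence, so its value is uncertain.

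Hamp2 encodes a hepcidin-family peptide closely related to Hamp, and its value is uncertain for the same reason. It stood at 8.66 and 8.87 with the PPARγ agonist, 9.60 and 9.61 with the PPARα agonist, and 9.01 and 8.94 with DMSO. The PPARα arrays were the highest and the PPARγ arrays the lowest of the 8. Ttc8, a subunit of the BBSome of cilia, had the same order, with a difference of -0.92. The remaining 7 differed by -1.12 to -0.78. These were Ctsm, a cathepsin known from placenta, at -1.12, Ttc36 at -1.04, Itga7, a laminin-binding integrin chain, at -0.92, Synpr, a synaptic vesicle protein, at -0.91, Tceal5 at -0.85, Slc41a2, a magnesium transporter, at -0.79, and Tmod4, a muscle tropomodulin, at -0.78. Only Itga7 overlapped between the groups.

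**Figure D2:**
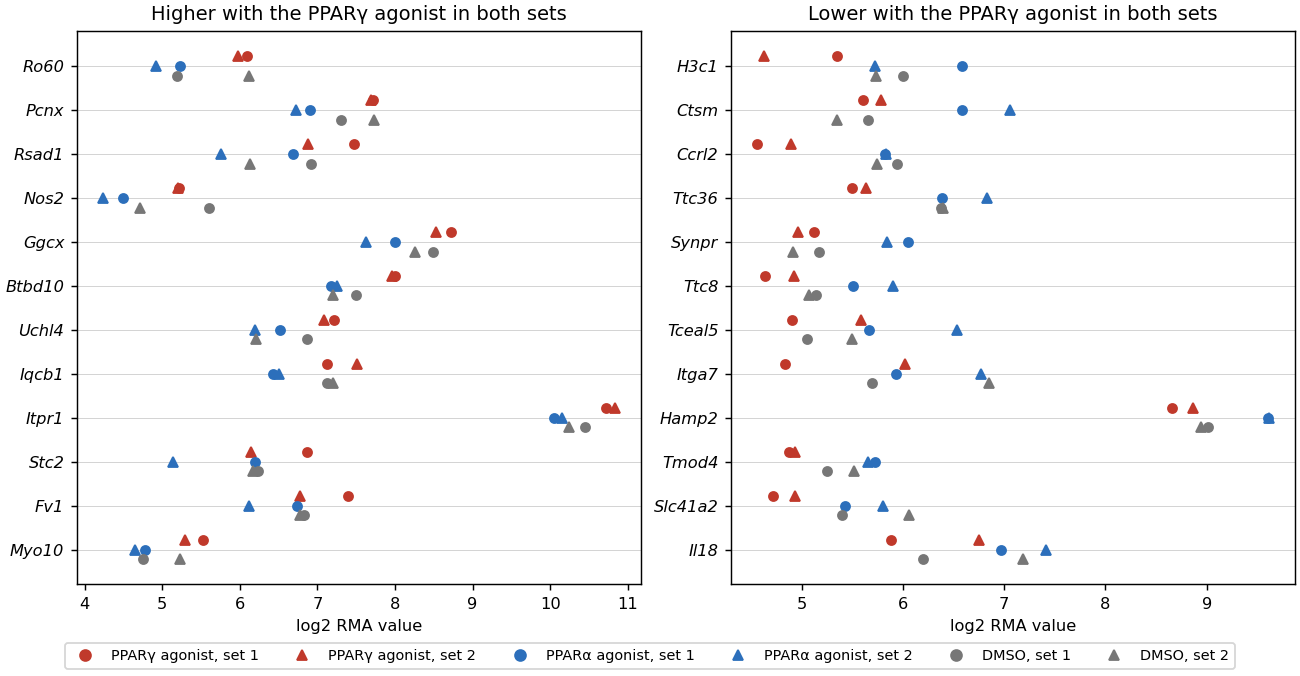
log2 RMA values of the 24 named genes with the PPARγ agonist (red), the PPARα agonist (blue) and DMSO (grey), circles for culture set 1 and triangles for set 2. The red and blue points do not overlap except for Stc2 and Itga7, and the grey points lie between, beside or outside them depending on the gene.

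Known PPAR targets that handle lipid were mostly lower with the PPARγ agonist than with the PPARα agonist, by small amounts. Of 29 listed genes, 19 were tested, and 5 of these had a difference above 0, against 51.1% of all tested genes. The median was -0.10, with -0.02 in set 1 and -0.18 in set 2. No tested target was higher in both culture sets by 0.3 or more, and Cpt1a and Hilpda were lower. Of the targets below the tested range, only Plin4 reached this size with 1 sign in both sets, higher by 0.33 and 0.80.

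Cpt1a (chromosome 19, 3323301 to 3385733 on mm10), whose promoter is printed above, stood at 9.87 and 11.53 with the PPARγ agonist, 10.52 and 11.86 with the PPARα agonist and 10.11 and 11.46 with DMSO. The groups overlapped because the culture sets differed by more than the agonists. Within the sets the differences were -0.65 and -0.32, with a mean of -0.49 (95% limma interval with the block -1.06 to 0.09, adjusted p = 0.885). Hilpda, an inhibitor of triglyceride breakdown on lipid droplets, stood at 9.14 and 9.73 with the PPARγ agonist, 9.58 and 10.04 with the PPARα agonist and 9.05 and 9.73 with DMSO. Its PPARγ values differed from DMSO by 0.09 and -0.00 in the sets, and the PPARα values were higher than both.

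Plin2 had opposite signs in the 2 culture sets. It stood at 6.22 and 7.09 with the PPARγ agonist, 5.80 and 7.79 with the PPARα agonist and 5.96 and 7.32 with DMSO. The differences between agonists were 0.42 and -0.70, and the 95% limma interval with the block was -0.73 to 0.45. On the arrays of the PPARβ agonist, Plin2 stood at 9.53 and 11.23.

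Angptl4, a secreted inhibitor of lipoprotein lipase, stood at 7.94 and 7.58 with the PPARγ agonist and 7.91 and 7.80 with the PPARα agonist. Fabp5, a carrier of fatty acids in lymphocytes, stood at 11.18 and 10.41 with the PPARγ agonist and 11.26 and 10.59 with the PPARα agonist. Both overlapped between the groups, with differences of -0.10 and -0.13. Abca1, a cholesterol exporter, differed by -0.75 in set 1 and 0.68 in set 2. Pdk4, which restrains pyruvate oxidation, and Cd36, a fatty acid transporter, lay below the tested range.

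The list of mitochondrial fatty acid oxidation genes shares Cpt1a, Slc25a20 and Acadm with the PPAR targets. Cpt1a and Slc25a20 had the largest sizes in both lists, so the lists are not independent. Of the mitochondrial fatty acid oxidation genes, 3 of 18 tested had a difference above 0, with a median of -0.09. The median was -0.02 in set 1 and -0.17 in set 2, and it was -0.11 with each array centred on its median. Slc25a20, the carrier that takes acylcarnitine into mitochondria, accounted for the second-largest size, at 10.05 and 10.33 with the PPARγ agonist and 10.08 and 11.16 with the PPARα agonist. Its difference of -0.43 came from set 2, at -0.83, against -0.03 in set 1. Acads, a short-chain acyl-CoA dehydrogenase, was higher by 0.37 and 0.16 in the sets. Peroxisomal genes were spread on both sides of 0, with 14 of 23 above it. Of these only Scp2, a lipid carrier, was lower by 0.3 or more in both sets, at -0.35 and -0.32, while Pex19, an import factor of peroxisomal membranes, differed by -0.41.

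Genes of fatty acid synthesis lay on the other side, with 8 of 11 above 0 and a median of 0.10. Acaca, the acetyl-CoA carboxylase of the first committed step, stood at 10.09 and 10.18 with the PPARγ agonist and 9.92 and 9.62 with the PPARα agonist. The groups did not overlap, and the difference was 0.36 (95% limma interval with the block -0.04 to 0.76). Fasn, the fatty acid synthase, differed by 0.27 in set 1 and 0.12 in set 2. Cholesterol genes were split, with 12 of 23 above 0 and a median of 0.00. Among them Pmvk, a kinase of the mevalonate pathway, was lower in both sets by 0.48 and 0.39. Mylip, a target of the sterol sensor LXR, was higher by 0.39 and 0.52, at 10.23 and 10.29 with the PPARγ agonist against 9.84 and 9.77 with the PPARα agonist.

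Glycolysis genes had 6 of 18 above 0 and a median of -0.06. Tpi1, triosephosphate isomerase, was lower by 0.26 and 0.24, and Pfkm, a phosphofructokinase, was higher by 0.29 and 0.62. Oxidative phosphorylation subunits had 11 of 27 above 0 and a median of -0.02, of which Ndufv2, a subunit of complex I, had the largest size at -0.39.

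**Figure D3:**
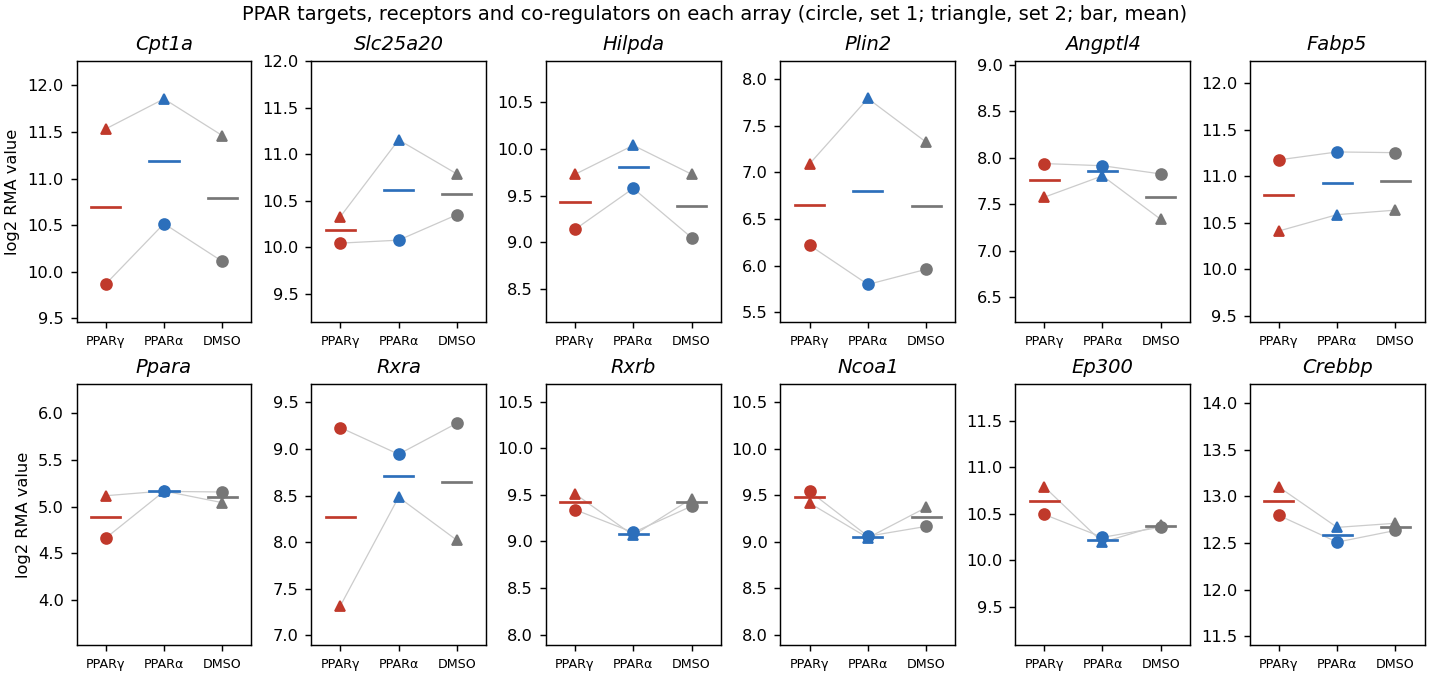
log2 RMA values of 6 PPAR targets or fatty acid genes (top, with Ppara, Rxra and the co-regulators below) with the PPARγ agonist (red), the PPARα agonist (blue) and DMSO (grey); circles are culture set 1, triangles set 2, bars the mean, and thin lines join arrays of 1 set. Every panel spans the same number of log2 units. Of the groups shown, Cpt1a and Hilpda were highest with the PPARα agonist in both sets, and Ncoa1, Ep300 and Crebbp were lowest with it.

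The receptors and their co-regulators had 13 of 16 tested members above 0, with a median of 0.13. It was 0.20 in set 1 and 0.24 in set 2, against 0.03 and -0.02 for all tested genes. Ppara, the gene of PPARα, stood at 4.66 and 5.12 with the PPARγ agonist and 5.16 and 5.17 with the PPARα agonist, near the lower limit of the tested range. The cluster shared by Ppard, the gene of PPARβ, and 1810013A23Rik stood at 9.36 and 9.95 with the PPARγ agonist and 9.91 and 9.89 with the PPARα agonist, so no value belongs to Ppard alone. Of the RXRs, Rxrb differed by 0.35 and Rxra by -0.44, and Rxra had opposite signs in the sets, at 0.29 and -1.17.

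The co-activators were among the higher members. Ncoa1, a steroid receptor co-activator, was the only list member at 0.3 or more in both sets, at 9.54 and 9.41 with the PPARγ agonist, 9.06 and 9.04 with the PPARα agonist and 9.16 and 9.37 with DMSO. Ep300 and Crebbp, related histone acetyltransferases, differed by 0.42 (95% limma interval with the block 0.06 to 0.78, adjusted p = 0.868) and 0.36. Ep300 stood at 10.49 and 10.79 with the PPARγ agonist, 10.25 and 10.19 with the PPARα agonist and 10.36 and 10.38 with DMSO. The PPARγ arrays were the highest and the PPARα arrays the lowest of the 8 for Ep300. These are long genes, with a median span of 86.7 kb over the 16 members, against 21.7 kb for all tested genes.

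Gene span moved with the difference between the agonists, in a comparison chosen after the data were seen. Span was known for 12246 tested genes, 96.5% of them, and these were cut into 5 equal groups, or quintiles. In the longest quintile, of 61.9 kb and more, 127 genes (5.19%) were higher with the PPARγ agonist by 0.3 or more in both sets and 44 (1.80%) were lower. In the shortest quintile, up to 7.03 kb, 56 genes (2.29%) were higher and 76 (3.10%) were lower. The quintiles between, from shorter to longer, had 1.88%, 2.12% and 2.41% higher and 2.57%, 1.96% and 1.92% lower. For the higher genes only the longest quintile therefore stood apart.

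The median difference in the longest quintile was 0.07 in set 1 and 0.07 in set 2. In the shortest quintile it was -0.00 and -0.05. Against DMSO, whose arrays both comparisons share, the longest quintile had medians of 0.06 and 0.04 with the PPARγ agonist and -0.02 and -0.04 with the PPARα agonist. Arrays without these agonists differed by similar sizes there, as the PPARβ agonist minus DMSO had medians of 0.04 and -0.08 in the sets. The shortest quintile also had the lowest median level of the quintiles, 7.77 against 9.24 in the longest. The named genes were chosen by the same differences, so their spans are no separate support. Their median span was 32.9 kb for the 12 higher and 6.28 kb for the 12 lower. Itpr1 spans 338.0 kb, Ncoa1 229.8 kb, Crebbp 132.6 kb and Ep300 65.9 kb, while H3c1 spans 0.502 kb. The part of gene span in the differences of single genes was not tested.

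**Figure D4:**
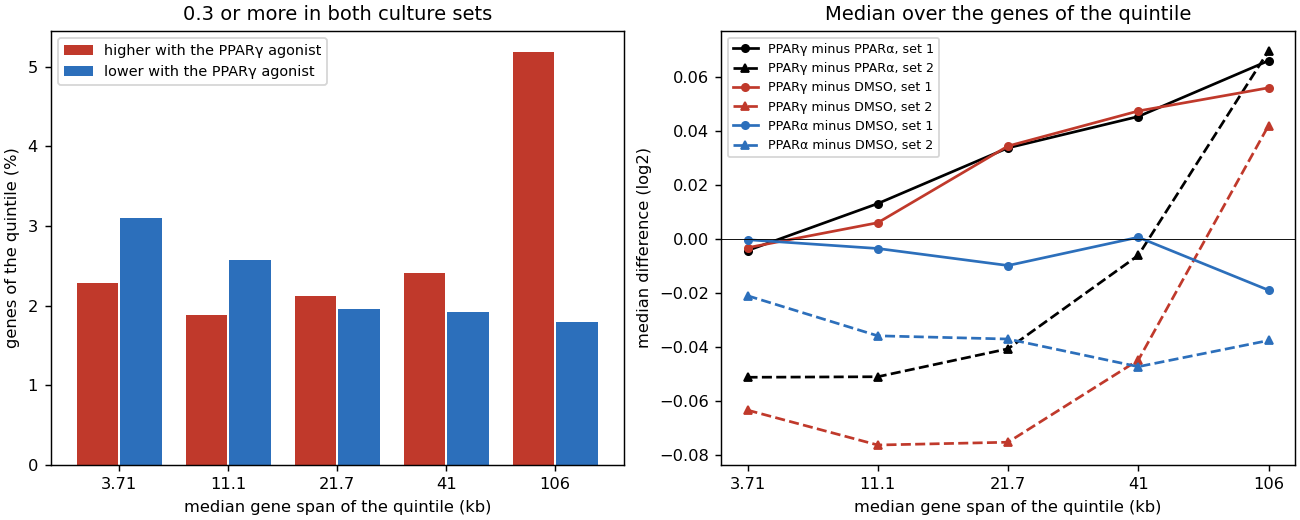
Left, percent of genes in each quintile of gene span that were higher (red) or lower (blue) with the PPARγ agonist by 0.3 or more in both culture sets. Right, median difference per quintile in set 1 (solid) and set 2 (dashed) for PPARγ minus PPARα (black), PPARγ minus DMSO (red) and PPARα minus DMSO (blue); only the longest quintile stands above 0 in both sets for PPARγ minus PPARα.

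Several T cell genes differed more between the culture sets than between the agonists. Ifng, the gene of interferon gamma, stood at 12.80 and 8.08 with the PPARγ agonist, 10.85 and 8.18 with the PPARα agonist and 11.54 and 7.42 with DMSO. Its difference of 0.92 came from set 1, and the 95% limma interval with the block was -0.07 to 1.92. Xcl1 and Ccl3, chemokines of activated CD8+ T cells, had the same pattern, at 1.26 and 0.80 in set 1 and -0.39 and -0.49 in set 2. Cxcl10, a chemokine induced by interferon, was higher in both sets by 0.60 and 0.56, at 5.94 and 5.23 with the PPARγ agonist and 5.34 and 4.67 with the PPARα agonist. The groups overlapped for Cxcl10, and its PPARα value of set 2 lay under the cut on the mean.

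Effector molecules had 4 of 13 tested members above 0 and a median of -0.09, with 0.05 in set 1 and -0.19 in set 2. Gzma, granzyme A, stood at 6.07 and 7.39 with the PPARγ agonist and 6.67 and 7.83 with the PPARα agonist. It was lower in both sets by 0.60 and 0.44, and the groups overlapped. Klrd1, the CD94 chain of NK-type receptors, differed by -0.66 and -0.18, and Prf1, perforin, by -0.01 and -0.70. Gzmb, granzyme B, stood at 15.12 and 14.16 with the PPARγ agonist and 14.74 and 14.32 with the PPARα agonist, with opposite signs in the sets.

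Type I interferon genes had 16 of 32 above 0 and a median of -0.01. Oasl2 stood at 6.27 and 6.29 with the PPARγ agonist and 5.68 and 5.55 with the PPARα agonist, against 8.02 and 5.96 with DMSO. Both Oasl2 and Oas3, sensors or relatives of sensors of viral RNA, were higher in both sets, by 0.67 and 0.42 on average. Rtp4 at -0.59 and Isg15, a ubiquitin-like modifier, at -0.44 were lower. The interferon-induced GTPases had 3 of 13 above 0 and a median of -0.09, with -0.21 in set 1 and 0.02 in set 2.

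Signalling and activation genes were near 0 as lists. Of the T cell receptor pathway, 14 of 22 were above 0 with a median of 0.03. Nfatc1, the calcium-driven transcription factor, was the only one at 0.3 or more in both sets, at 12.80 and 12.94 with the PPARγ agonist, 12.31 and 12.51 with the PPARα agonist and 12.76 and 12.58 with DMSO. The PPARγ arrays were the highest and the PPARα arrays the lowest of the 8 for Nfatc1, at a difference of 0.46 (95% limma interval with the block 0.09 to 0.84).

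Egr1 differed by 0.66 and 0.23 and Nr4a1 by -0.60 and -0.15, both early genes of receptor signalling. Il2ra, the alpha chain of the interleukin receptor for IL-2, stood at 12.96 and 11.95 with the PPARγ agonist and 12.81 and 11.90 with the PPARα agonist. Tgfbr1, a receptor of TGF-beta, was higher by 0.36 and 0.38, and Tnfrsf8, the activation receptor CD30, was lower by 0.36 and 0.50. Runx3, a factor of the CD8 lineage, differed by 0.34, and Batf3 by -0.38.

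Cell cycle and stress lists lay within 0.07 of 0. DNA replication genes had 18 of 28 above 0 with a median of 0.04, and mitosis genes 15 of 27 with 0.02. Mki67, a proliferation marker, stood at 16.20 and 16.77 with the PPARγ agonist and 16.03 and 16.24 with the PPARα agonist, a difference of 0.35. The unfolded protein response had 11 of 15 above 0 with a median of 0.07, and its member Sdf2l1 was higher by 0.42 and 0.35. Of the lists not described so far, chemokines had 4 of 7 above 0 and a median of 0.15, with 0.50 in set 1 and -0.39 in set 2. The others had medians between -0.05 for homing receptors, with 6 of 18 above 0, and 0.04 for early response genes, with 12 of 21 above 0.

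**Figure D5:**
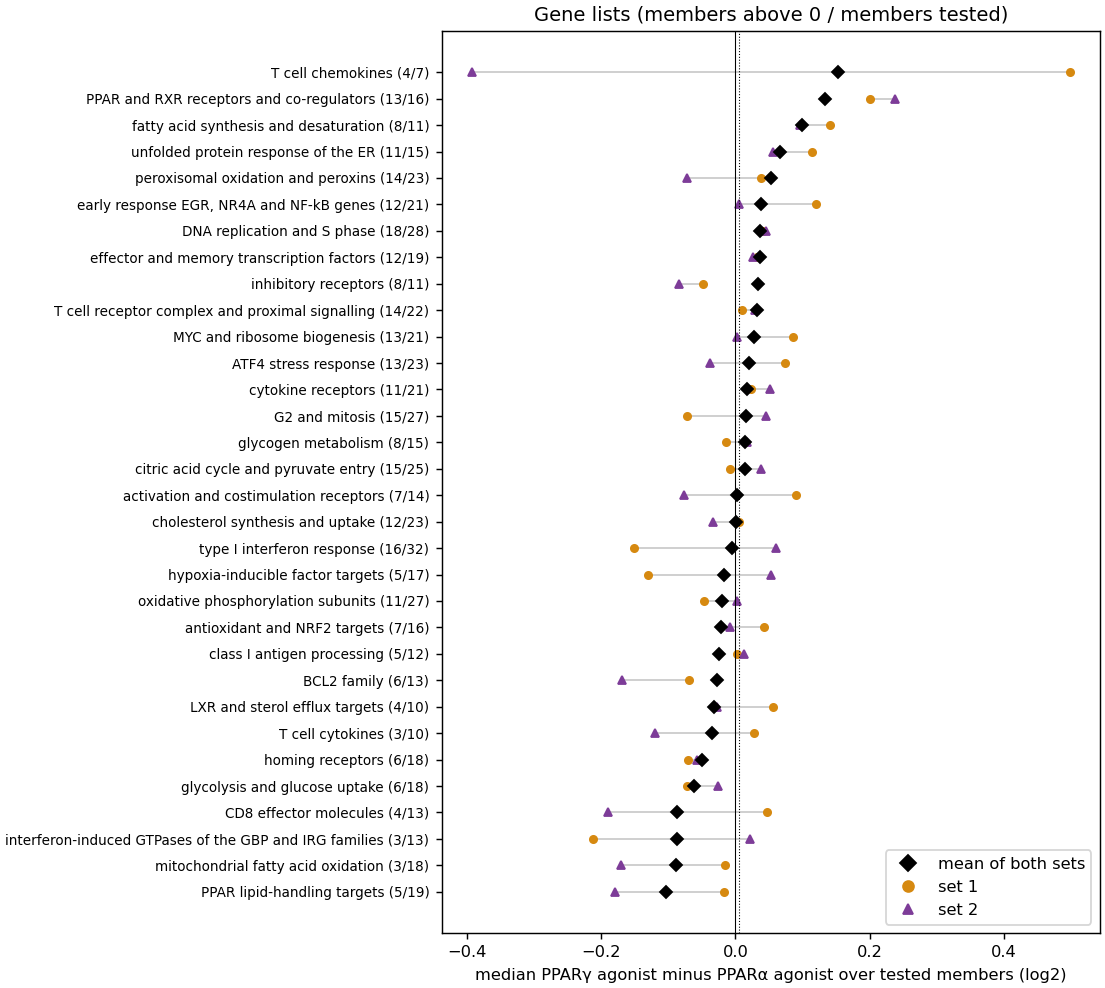
Median difference (log2, PPARγ agonist minus PPARα agonist) over the tested members of each of 32 gene lists, as the mean of both sets (black), set 1 (orange) and set 2 (purple). The dotted line is the median of all tested genes, 0.00. Some genes are members of several lists. The set medians lie above 0 in both sets for 10 lists, among them the receptors and co-regulators, fatty acid synthesis, the unfolded protein response and DNA replication, and below 0 in both for 6, among them PPAR targets, mitochondrial oxidation, glycolysis, homing receptors and the BCL2 family.

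Of the markers of other cells, 4 of 10 for B cells, 5 of 13 for monocytes, macrophages and dendritic cells, 3 of 12 for neutrophils and mast cells and 1 of 6 for NK cells were in the tested range, among those with a cluster of their own. The CD8 T cell list had 5 of 10 above 0, with a mean level of 15.30 and 15.33 with the PPARγ agonist and 15.34 and 15.34 with the PPARα agonist. All 4 tested CD4 T cell genes, Cd4, Zbtb7b, Cd40lg and Il2ra, had a mean difference above 0. Their mean level was 8.56 and 8.12 with the PPARγ agonist and 8.45 and 7.71 with the PPARα agonist. Il2ra, given above among the activation genes, raises that mean level. Cd40lg had opposite signs in the sets, at -0.05 and 0.43. Cd4 itself stood at 9.15 and 8.40 with the PPARγ agonist and 8.88 and 7.46 with the PPARα agonist, a difference of 0.61.

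Of the B cell markers, 0 of 4 tested were above 0, while Ms4a1 and Cd79a lay below the tested range. The tested markers had mean levels of 6.60 and 6.56 with the PPARγ agonist and 6.63 and 6.97 with the PPARα agonist. Cd79b, a B cell receptor chain, differed by -0.29. Kit, a mast cell receptor, stood at 6.65 and 6.49 with the PPARγ agonist, 6.95 and 7.10 with the PPARα agonist and 7.42 and 7.44 with DMSO. The part of these cells in the differences was not tested.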

How the data were processed

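The deposited log2 values are RMA values made by the authors in Expression Console on Clariom S Mouse arrays, per the labels and the submitters' processing notes, with no version given in the sources used here. The annotation is release na36 on mm10, per the file headers. RMA forces arrays to 1 distribution, which hides any shift common to most genes. The deposited linear intensity is the same value unlogged (largest gap in log2 1.5e-06) and was not tested. The labels name a gene-level summary for 1 sample but an exon-level one for 7, and every column holds the same clusters. The number of arrays limits the precision. RNA input was 100 ng.

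Of 22206 clusters, 832 name several genes and 3 none. Entrez IDs matched 20395 clusters to RefSeq (GRCm38.p6), which updated 899 symbols. The cluster with the highest mean stood for a gene, and genes under the 40th percentile were not tested. limma 3.58.1 in R 4.3.3 fitted 4 group means over 8 arrays, two-sided, with Benjamini-Hochberg adjustment. The fit was also run on simulated data with changes larger than nearly all differences seen here. That run does not show how well small differences are found. The replicate block rests on the shared title prefix. Set differences of any 2 groups correlated at 0.496 to 0.55 over genes, so the sets pair the arrays. Differences are equal with and without the block.

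Gene names follow a fixed rule: up to 12 per direction by adjusted p, filled by sizes of 0.3 or more in both sets, up to 4 of each list with the largest difference, and 19 fixed genes. Some of these genes are not reported here. The members and lists were chosen with earlier results of these data known. Tables and plots were made in Python 3.11.15 (matplotlib 3.10.9, pandas 2.3.3, numpy 2.4.6).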

Additional observations from a re-analysis of the deposited data

How the results depend on the processing

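No alternative called a gene at an adjusted p under 0.05, and the smallest adjusted p was 0.0888, with an intensity trend, robust variances and the replicate block in limma. The count at an unadjusted p under 0.05 was 255. It was 723 with the replicate block, 684 with the block on the 4 arrays alone, 763 with the block, trend and robust variances, 634 with no filter (21160 genes tested) and 124 when the filter was the 60th percentile (8464 genes tested). Leaving out 1 array gave 189 to 425 without the block, the highest without PPARγ set 1. With the block it gave 996 and 722 without PPARγ set 1 and set 2, 640 and 514 without PPARα set 1 and set 2, and 671 or 745 without a DMSO or PPARβ array. Genes higher in both sets numbered 733 with no filter and 205 at the 60th percentile, and genes lower 659 and 105, as more or fewer genes were tested. With arrays centred they were 292 and 343. In the longest quintile of gene span, 103 genes were higher and 9 lower at the 60th percentile, against 102 and 54 with arrays centred. In the shortest quintile these were 11 and 31 at the 60th percentile and 49 and 87 with arrays centred.

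The difference of 23 named genes changed sign when 1 array was left out without the block, which unbalances the culture sets. Leaving out 1 array gave -0.62 to 0.55 for Abca1, -0.28 to 0.078 for Angptl4, -1.38 to 1.69 for Ccl3, -0.11 to 1.32 for Cd4, -1.32 to 0.35 for Cpt1a, -0.59 to 0.072 for Ctsw and -0.61 to 0.045 for Cyp4a14. It gave -0.97 to 1.86 for Egr1, -0.51 to 0.25 for Fabp5, -0.43 to 0.83 for Fasn, -0.72 to 0.009 for Gbp11, -1.18 to 0.14 for Gzma, -0.37 to 0.59 for Gzmb, -1.44 to 3.28 for Ifng and -0.40 to 0.61 for Il2ra. It gave -0.32 to 0.17 for Klf11, -1.11 to 0.26 for Klrd1, -1.04 to 0.29 for Nr4a1, -1.14 to 0.86 for Plin2, -0.89 to 0.17 for Prf1, -1.40 to 0.52 for Rxra, -0.97 to 0.11 for Slc25a20 and -1.08 to 1.95 for Xcl1. None of the 24 genes named for both sets changed sign under the alternatives checked, which their choice by the same arrays largely fixes. Signs were not checked with 1 array left out and the block in the fit.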

Other observations

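Rhob, a small GTPase, is named outside the naming rule after its values were seen. It stood at 4.66 and 4.60 with the PPARγ agonist, 5.02 and 5.49 with the PPARα agonist and 5.18 and 5.24 with DMSO. Both PPARγ arrays lay below the other 6, all near the lower limit of the tested range, and the difference was -0.36 in set 1 and -0.89 in set 2. The largest mean differences of all belonged to predicted genes, which the naming rule passes over and which are named here after their values were seen. Gm17482 had a difference of -3.10 in set 1 and -1.70 in set 2, and Gm17530 of 0.60 and 2.73.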
